A study of Mus musculus with 11 samples.

Results

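The red cell membrane skeleton is described here through 8 genes, *Sptb*, *Ank1*, *Epb42*, *Slc4a1*, *Epb41*, *Add2*, *Dmtn* and *Tmod1*. They were chosen by name for their place in that structure, with earlier results of these data known. Each was found by gene identifier among the 55487 identifiers in the deposited counts. All 8 passed the filter of at least 10 counts summed over the hearts, as did 24177 genes in all. The hearts came from untreated mouse embryos at E14.5 on a mixed B6; 129P2 background, from matings between *Pde2A*+/- parents, and 1 library of poly(A) RNA was made from each heart. The 5 *Pde2A*-/- hearts carried the tm1Dgen allele of Pde2A on both chromosomes in every tissue of the embryo, not in the heart alone, and the 6 *Pde2A*+/+ hearts were wild type. Pde2A encodes a phosphodiesterase that breaks down cAMP and cGMP. Embryos of both sexes were used, and the labels name neither litter nor batch, so that p-values measure the spread between these hearts.

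The mature red cell has no internal cytoskeleton and keeps its shape through a protein mesh under its membrane. Spectrin tetramers form the mesh, ankyrin and protein 4.2 tie it to the anion exchanger band 3, and junctions of short actin filaments, protein 4.1, adducin, dematin and tropomodulin hold the spectrin ends together. Erythroblasts build this mesh while they mature, and several of the same genes or their relatives also serve muscle, where ankyrin and spectrin organise membrane domains and tropomodulin caps the thin filaments of the sarcomere. An embryonic heart holds both heart muscle and circulating blood, and at this age the blood holds red cells from the yolk sac and from the fetal liver.

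The libraries held 35865537 to 42835382 reads on the sense strand of genes, a depth at which the members had between 52 counts, for *Epb42* in *Pde2A*+/+ replicate 6, and 20943 counts, for *Slc4a1* in *Pde2A*-/- replicate B. *Pde2a* itself had 0 to 2 counts per heart and 7 in all. These counts gave no check of the genotypes. In the annotation *Gm45837*, on the same strand, shares 64.3% of the *Pde2a* exon bases, and a read on both genes is counted for neither; its part in the low count was not tested. Heart muscle genes were present in every library, with 20 cardiomyocyte genes summing to between 49212 and 64645 CPM (counts scaled to the library size after TMM normalization). Reads of neighbouring organs differed between libraries. *Alb*, which encodes albumin of the liver, was at 10 CPM or more in *Pde2A*-/- replicate D and *Pde2A*+/+ replicates 11, H and E, and *Myh3*, an embryonic skeletal muscle myosin, reached that level in *Pde2A*-/- replicates B and D and *Pde2A*+/+ replicates 11 and E.

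Of the 8 skeleton genes, 6 rose in *Pde2A*-/- hearts and none fell, by edgeR's quasi-likelihood test at a Benjamini-Hochberg adjusted p under 0.05 over all genes tested. *Sptb*, *Ank1*, *Epb42*, *Slc4a1*, *Add2* and *Dmtn* rose by between 2.06 and 7.77 times, whereas *Epb41* and *Tmod1* did not pass the test. Among all 24177 genes 8.93% passed as higher and 5.67% as lower. The 6 genes were also past a 2-fold rise, which 2.21% of all genes were, and in each of them every *Pde2A*-/- heart lay above every *Pde2A*+/+ heart, which held for 5.38% of all genes. The median log2 fold change of the 8 members was 1.56, beside -0.02 over all genes. In whole hearts, more red cells, another mix of red cell stages, more RNA per red cell and expression in other cells cannot be told apart.

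**Figure D1:**
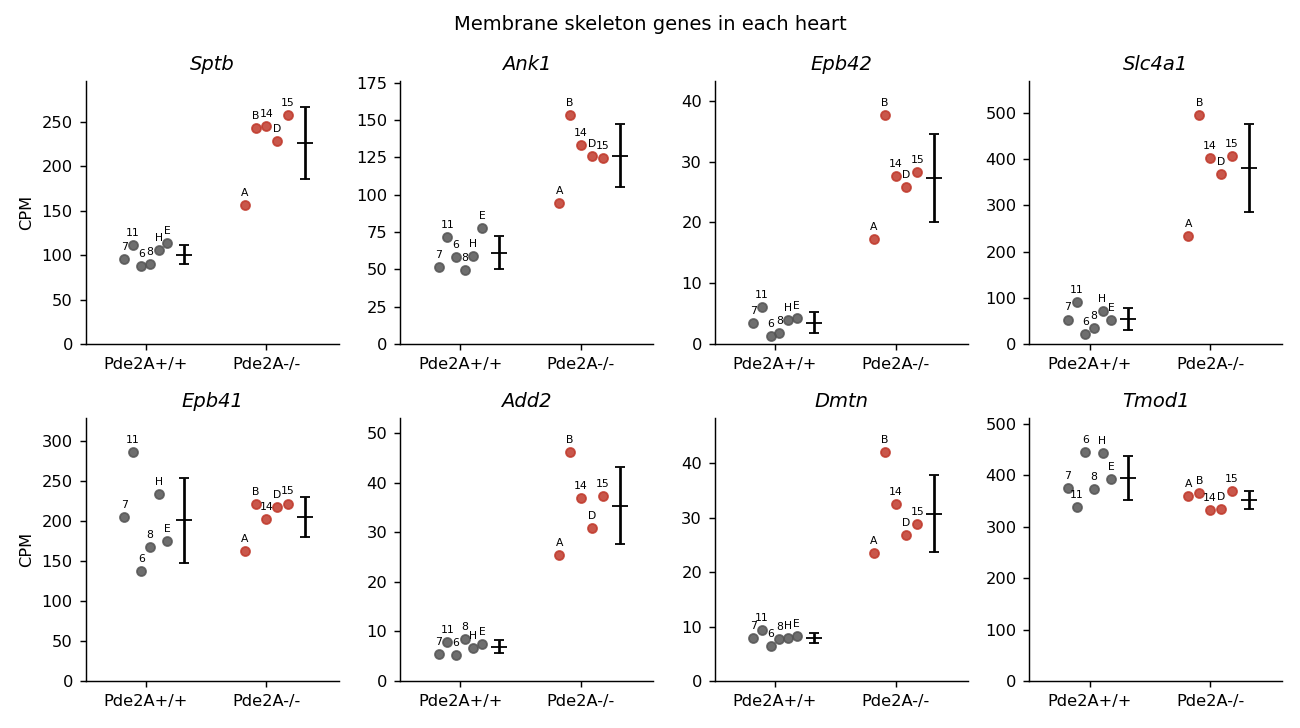
Level of each membrane skeleton gene in CPM (vertical axis, starting at 0) in the 6 *Pde2A*+/+ hearts (grey) and the 5 *Pde2A*-/- hearts (red). Each point is a heart marked with its replicate name, and the bars give the mean and SD. The genotypes do not overlap for Sptb, Ank1, Epb42, Slc4a1, Add2 and Dmtn, and overlap for Epb41 and Tmod1.

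*Sptb*, which encodes the erythroid beta spectrin and lies on chromosome 12 (ENSMUSG00000021061, 76580488 to 76710547, minus strand, GRCm38 as in all positions given here), stood at 156, 243, 245, 229 and 257 CPM in *Pde2A*-/- replicates A, B, 14, D and 15. In *Pde2A*+/+ hearts it lay between 87.9 and 114 CPM with a median of 100.5 CPM. The lowest *Pde2A*-/- heart, replicate A, was still above all *Pde2A*+/+ hearts. The means were 226 ± 40.2 CPM (SD, n = 5) and 101 ± 10.9 CPM (SD, n = 6), a rise of 2.24 times (log2 fold change 1.17, SE 0.115, adjusted p = 3.12e-05).

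*Ank1* on chromosome 8 (ENSMUSG00000031543, 22974844 to 23150497, plus strand) encodes ankyrin 1, the adaptor between beta spectrin and band 3. It was at 94.6, 153, 133, 126 and 124 CPM in *Pde2A*-/- replicates A, B, 14, D and 15. The *Pde2A*+/+ hearts ranged from 49.8 to 77.8 CPM around a median of 58.6 CPM, and the genotypes did not overlap. The rise of 2.06 times (126 ± 21.1 against 61.4 ± 11.1 CPM, log2 fold change 1.04, SE 0.131, adjusted p = 2.43e-04) was the smallest of the 6, and its log2 fold change fell just under 1 when *Pde2A*-/- replicate B (0.962), *Pde2A*+/+ replicate 7 (0.996) or *Pde2A*+/+ replicate 8 (0.992) was left out. *Sptb* and *Ank1* kept close to a fixed proportion per length, at 1.85 ± 0.194 in *Pde2A*+/+ and 2.0 ± 0.209 in *Pde2A*-/- hearts, and these ratios overlapped. *Gm15816*, an antisense gene over 6.37% of the *Ank1* exon bases, was counted apart because the libraries keep the strand. With reads of both strands counted, the log2 fold change of *Ank1* was 1.23, above that of *Sptb* at 1.17.

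*Epb42* on chromosome 2 (ENSMUSG00000023216, 121017891 to 121037072, minus strand) encodes protein 4.2, which binds both ankyrin and band 3. In *Pde2A*-/- replicates A, B, 14, D and 15 its level was 17.3, 37.6, 27.5, 25.8 and 28.3 CPM. The *Pde2A*+/+ hearts held 1.42 to 6.09 CPM, with a median of 3.76 CPM. Replicate A was again the lowest of its genotype and yet above all of the other. *Epb42* had the highest fold change of the members, 7.77 times (27.3 ± 7.23 against 3.51 ± 1.72 CPM, log2 fold change 2.96, SE 0.306, adjusted p = 4.86e-05).

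*Slc4a1* on chromosome 11 (ENSMUSG00000006574, 102348824 to 102366203, minus strand) encodes band 3, the chloride and bicarbonate exchanger that anchors the skeleton in the lipid bilayer. The *Pde2A*-/- hearts stood at 233, 494, 403, 367 and 406 CPM in replicates A, B, 14, D and 15. The *Pde2A*+/+ hearts spread over a 4-fold range, from 22.8 CPM in replicate 6 to 91.2 CPM in replicate 11, around a median of 52.7 CPM. The means of 381 ± 94.8 and 54.2 ± 24.6 CPM differed by 7.03 times (log2 fold change 2.81, SE 0.298, adjusted p = 5.78e-05). Per kilobase, band 3 stood at 1.31 ± 0.503 times the level of *Sptb* in *Pde2A*+/+ hearts and at 4.15 ± 0.525 times in *Pde2A*-/- hearts, with no overlap (0.643 to 2.04 against 3.71 to 5.06). Against *Ank1* the ratio went from 2.43 ± 0.958 to 8.24 ± 0.889, also without overlap. In these ratios *Slc4a1* differed more between the genotypes than *Sptb* and *Ank1* did, and the ratios are given as values without a test.

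At the junctions, *Add2* and *Dmtn* rose and *Epb41* and *Tmod1* did not pass the test. *Add2* on chromosome 6 (ENSMUSG00000030000, 86028681 to 86124409, plus strand) encodes beta adducin, which caps actin and recruits spectrin to it. Its level was 25.4, 46.2, 36.9, 31.0 and 37.3 CPM in *Pde2A*-/- replicates A, B, 14, D and 15 and 5.21 to 8.52 CPM, median 7.10 CPM, in *Pde2A*+/+ hearts. The rise of 5.14 times (35.4 ± 7.80 against 6.88 ± 1.32 CPM, log2 fold change 2.36, SE 0.158, adjusted p = 2.82e-06) was larger than the spread within either genotype. Beta adducin works as a dimer with the alpha adducin encoded by *Add1*, whose level was 354 ± 9.96 against 339 ± 7.48 CPM (log2 fold change 0.06, 95% interval -0.02 to 0.14, adjusted p = 0.293). Per kilobase *Add2* made up 0.0171 ± 0.00323 of the *Add1* level in *Pde2A*+/+ hearts and 0.0841 ± 0.0164 in *Pde2A*-/- hearts.

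*Dmtn* on chromosome 14 (ENSMUSG00000022099, 70601263 to 70636048, minus strand) encodes dematin, an actin-bundling protein of the junction. It was at 23.5, 42.1, 32.5, 26.8 and 28.9 CPM in the *Pde2A*-/- replicates in the same order, and at 6.41 to 9.27 CPM, median 7.91 CPM, in *Pde2A*+/+ hearts. The genotypes lay far apart beside the spread within them, and *Dmtn* rose by 3.88 times (30.8 ± 7.13 against 7.92 ± 0.923 CPM, log2 fold change 1.96, SE 0.135, adjusted p = 3.20e-06).

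*Epb41* on chromosome 4 (ENSMUSG00000028906, 131923413 to 132075321, minus strand) encodes protein 4.1, which fastens spectrin to actin and to glycophorin C. The *Pde2A*-/- hearts were at 163, 222, 202, 217 and 222 CPM, in the same order, and the *Pde2A*+/+ hearts ran from 137 CPM in replicate 6 to 286 CPM in replicate 11 with a median of 190 CPM. All *Pde2A*-/- values lay inside the *Pde2A*+/+ range. The log2 fold change was 0.03 (SE 0.157, 95% interval -0.31 to 0.37, adjusted p = 0.919), so that the data leave room for a change of up to about that size in either direction. Its sign turned, at -0.054, -0.013 and -0.0059, without *Pde2A*+/+ replicates 6, 8 and E. Relative to *Sptb* per length, *Epb41* went from 1.51 ± 0.310 in *Pde2A*+/+ hearts to 0.700 ± 0.0640 in *Pde2A*-/- hearts, and these ratios did not overlap.

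*Tmod1*, also on chromosome 4 (ENSMUSG00000028328, 46038935 to 46116032, plus strand), encodes the tropomodulin that caps actin filaments in red cells and in the sarcomeres of heart muscle. It was at 360, 366, 332, 335 and 369 CPM in *Pde2A*-/- replicates A, B, 14, D and 15 and at 339 to 445 CPM, median 384 CPM, in *Pde2A*+/+ hearts. The ranges overlapped, and *Pde2A*+/+ replicates 6 and H were the highest hearts of all. The log2 fold change was -0.16 (SE 0.0703, 95% interval -0.32 to -0.01), with an unadjusted p = 0.0352 and an adjusted p = 0.131 by edgeR. *Tstd2* shares 32.6% of the *Tmod1* exon bases on the other strand.

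**Figure D2:**
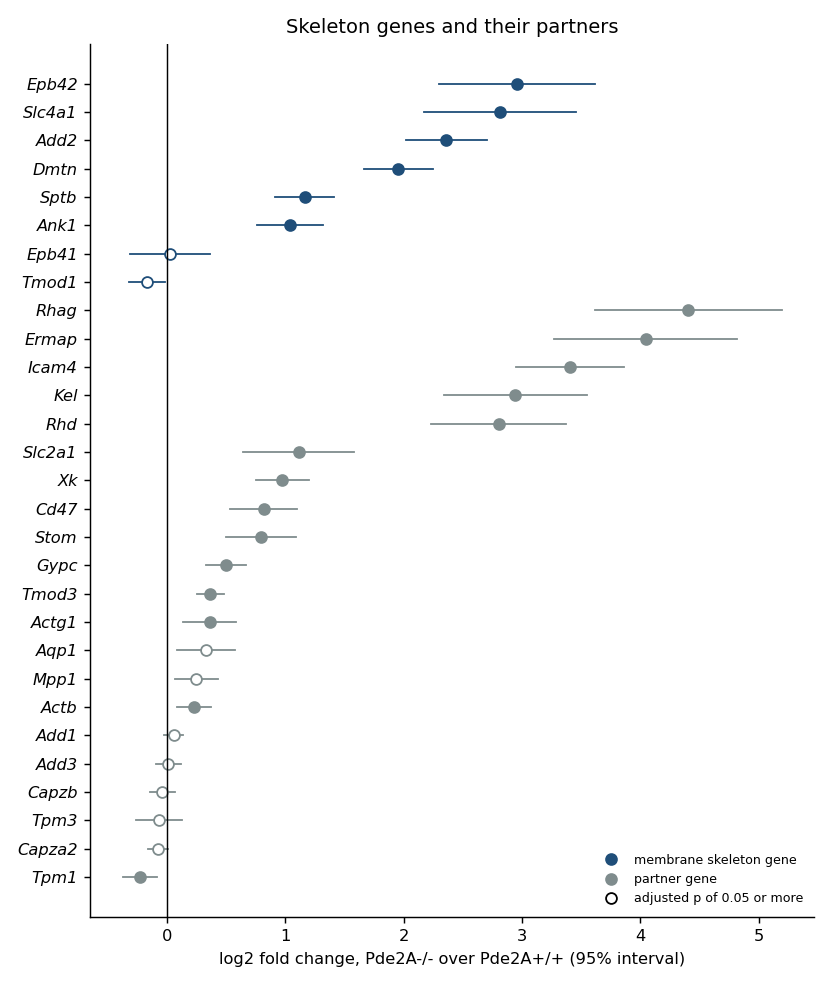
Log2 fold change of *Pde2A*-/- over *Pde2A*+/+ hearts (horizontal axis) with its 95% interval for the 8 membrane skeleton genes (blue) and 21 of the partner genes (grey), from edgeR. Filled points had an adjusted p under 0.05. The members run from 2.96 for Epb42 down to -0.16 for Tmod1, and the partners from 4.40 for Rhag to -0.23 for Tpm1.

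The order of the members also differed between the genotypes. Per kilobase of exon in *Pde2A*+/+ hearts *Tmod1* came first at 100 ± 10.7 CPM per kilobase, followed by *Epb41* at 12.6 ± 3.35, *Slc4a1* at 11.1 ± 5.02, *Sptb* at 8.29 ± 0.901, *Ank1* at 4.54 ± 0.821, *Dmtn* at 0.808 ± 0.0941, *Add2* at 0.679 ± 0.130 and *Epb42* at 0.648 ± 0.318. The ranges of *Epb41* and *Slc4a1*, *Slc4a1* and *Sptb*, *Dmtn* and *Add2*, and *Add2* and *Epb42* overlapped, so these neighbours were not separated. In *Pde2A*-/- hearts *Slc4a1* stood second at 77.9 ± 19.4 CPM per kilobase, and its range overlapped that of *Tmod1* at 89.3 ± 4.46. *Sptb* followed at 18.6 ± 3.31, *Epb41* at 12.9 ± 1.57, *Ank1* at 9.33 ± 1.56, *Epb42* at 5.04 ± 1.33, *Add2* at 3.49 ± 0.769 and *Dmtn* at 3.14 ± 0.727. *Epb42*, the lowest member by its mean in *Pde2A*+/+ hearts, where *Add2* lay above it in only 2 of 6 hearts, stood above *Add2* in 5 of 5 *Pde2A*-/- hearts. Their ranges overlapped, as did those of *Sptb* and *Epb41*, *Epb41* and *Ank1*, and *Add2* and *Dmtn*. Exon lengths were those of all annotated transcripts together, which lowers the value per kilobase of genes with many transcripts, such as *Epb41* and *Ank1*.

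Promoters were found in the RefSeq table for 5 of the 8 members, as 7 windows. Each window was searched over the 250 bases before the RefSeq start. The stretch that lies before any annotated exon is shown for 3 genes that rose, *Sptb*, *Epb42* and *Add2*, and for 1 of the 3 starts of *Epb41*, which did not pass, so that both outcomes can be set side by side. The *Tmod1* window lies inside an annotated first exon and is not shown. Sequences run 5′ to 3′ on the strand of the gene, in GRCm38.p6, and capitals mark matches on either strand to AGATAA or TGATAA, the words bound by GATA factors, or to CCNCNCCC, a word of the CACCC boxes bound by *Klf1* and other Krüppel-like and Sp factors.
*Sptb* (chr12:76710548-76710797, minus strand): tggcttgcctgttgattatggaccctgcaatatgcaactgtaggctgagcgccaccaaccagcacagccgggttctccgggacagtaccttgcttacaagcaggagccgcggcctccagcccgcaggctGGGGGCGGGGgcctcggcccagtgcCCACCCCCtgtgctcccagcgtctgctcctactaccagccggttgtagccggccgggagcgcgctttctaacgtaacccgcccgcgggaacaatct
*Epb42* (chr2:121037073-121037127, minus strand): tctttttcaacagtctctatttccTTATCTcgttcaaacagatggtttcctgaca
*Add2* (chr6:86028431-86028680, plus strand): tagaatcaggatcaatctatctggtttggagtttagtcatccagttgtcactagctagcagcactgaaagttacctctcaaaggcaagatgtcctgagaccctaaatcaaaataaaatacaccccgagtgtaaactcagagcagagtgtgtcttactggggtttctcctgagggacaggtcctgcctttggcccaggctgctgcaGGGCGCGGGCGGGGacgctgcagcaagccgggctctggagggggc
*Epb41* (chr4:132049092-132049328, minus strand): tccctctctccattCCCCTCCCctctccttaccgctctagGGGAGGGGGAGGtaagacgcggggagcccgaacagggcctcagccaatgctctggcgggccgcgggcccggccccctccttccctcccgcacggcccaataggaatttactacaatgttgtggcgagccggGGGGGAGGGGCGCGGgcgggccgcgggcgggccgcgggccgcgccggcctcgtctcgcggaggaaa
The GATA words were found once, in *Epb42*, on the strand opposite the gene and starting 226 bases before the start, and in none of the other 6 windows. Over 32851 promoter windows of the same length, 16.6% held such a word. The CACCC word occurred 3 times in *Sptb*, 2 times in *Add2* where the matches overlap, 4 times in *Tmod1* and 6 times, some of them overlapping, in the *Epb41* window shown. It was absent from *Epb42*. In all it was present in 5 of the 7 windows and in 45.9% of all windows. An E-box, CANNTG, which is bound by *Tal1* among many other factors and is left in lower case above, was present in 5 of the 7 windows and in 66.2% of all. It occurred 4 times in the whole *Epb42* window, once in *Sptb*, once in *Add2* and not in *Tmod1* or the *Epb41* window shown. Matches of these words describe the sequence and were not tested for binding.

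Among 23 further genes of the red cell skeleton and its membrane complexes, 15 rose, 1 fell and 7 did not pass, and 8 of those that rose were past 2-fold. Their median log2 fold change was 0.50. The highest values were those of *Rhag*, *Ermap*, *Icam4* and *Kel*, among glycoproteins and blood group carriers whose changes differed in size. *Xk* rose by 0.98 on the log2 scale, and *Aqp1* did not pass (log2 fold change 0.33, adjusted p = 0.0678). *Rhag*, which encodes the Rh-associated glycoprotein, rose from 1.20 ± 0.747 to 25.6 ± 5.86 CPM (log2 fold change 4.40, SE 0.366, adjusted p = 9.65e-06). *Ermap*, the erythroblast membrane-associated protein, rose by 4.05 on the log2 scale (SE 0.359, adjusted p = 1.45e-05), *Icam4*, an adhesion molecule of red cells that antisense *Gm47079* covers on the other strand, by 3.40 (SE 0.212, adjusted p = 2.19e-06), and *Kel*, the Kell antigen, by 2.94 (SE 0.281, adjusted p = 2.39e-05). *Gypc*, the glycophorin that *Epb41* binds, rose by 0.50 on the log2 scale (44.0 ± 3.26 to 62.2 ± 7.25 CPM, SE 0.0781, adjusted p = 1.36e-03). *Mpp1*, the third protein of that complex with *Epb41*, was at 42.9 ± 5.23 and 51.1 ± 4.28 CPM (log2 fold change 0.25, 95% interval 0.07 to 0.43, adjusted p = 0.0629). The actins *Actb* and *Actg1*, *Add1* and *Add3*, the tropomyosins *Tpm1* and *Tpm3*, *Tmod3*, *Capza2* and *Capzb* had log2 fold changes between -0.23 and 0.37. Of these, *Tmod3*, *Actb* and *Actg1* passed as higher and *Tpm1* as lower. Among the other partners *Slc2a1* rose by 1.12 on the log2 scale (adjusted p = 5.81e-03), *Cd47* by 0.82 (adjusted p = 1.79e-03) and *Stom* by 0.80 (adjusted p = 2.75e-03). Without the 4 hearts with *Alb*, which left 4 *Pde2A*-/- and 3 *Pde2A*+/+ hearts, 10 partners passed, all higher. All 6 members stayed past the test without those hearts, and also without the 4 hearts with *Myh3*.

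The relatives of the 8 genes in the same gene families were compared next. *Add1*, *Add3* and *Tmod3* are among them and are also counted among the partners above. Of 40 such paralogs, 39 had enough counts, 6 rose, 2 fell and 31 did not pass, with a median log2 fold change of 0.05. The relatives with the highest level per length in *Pde2A*+/+ hearts were *Sptbn1* for *Sptb*, *Ank3* for *Ank1*, *Tgm2* for *Epb42*, *Slc4a2* for *Slc4a1*, *Epb41l3* for *Epb41*, *Add3* for *Add2*, *Ablim1* for *Dmtn* and *Lmod2* for *Tmod1*. Their log2 fold changes lay between -0.09 for *Epb41l3* and 0.36 for *Ablim1*, and of these 8 only *Sptbn1*, the widely expressed beta spectrin, passed, at 0.27 (SE 0.0824, adjusted p = 0.0436). *F13a1*, the clotting factor XIII subunit that belongs to the transglutaminase family of *Epb42* and is expressed in macrophages and megakaryocytes, had the highest change among the relatives above 1 CPM, a log2 fold change of 1.30 (SE 0.185, adjusted p = 6.96e-04).

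**Figure D3:**
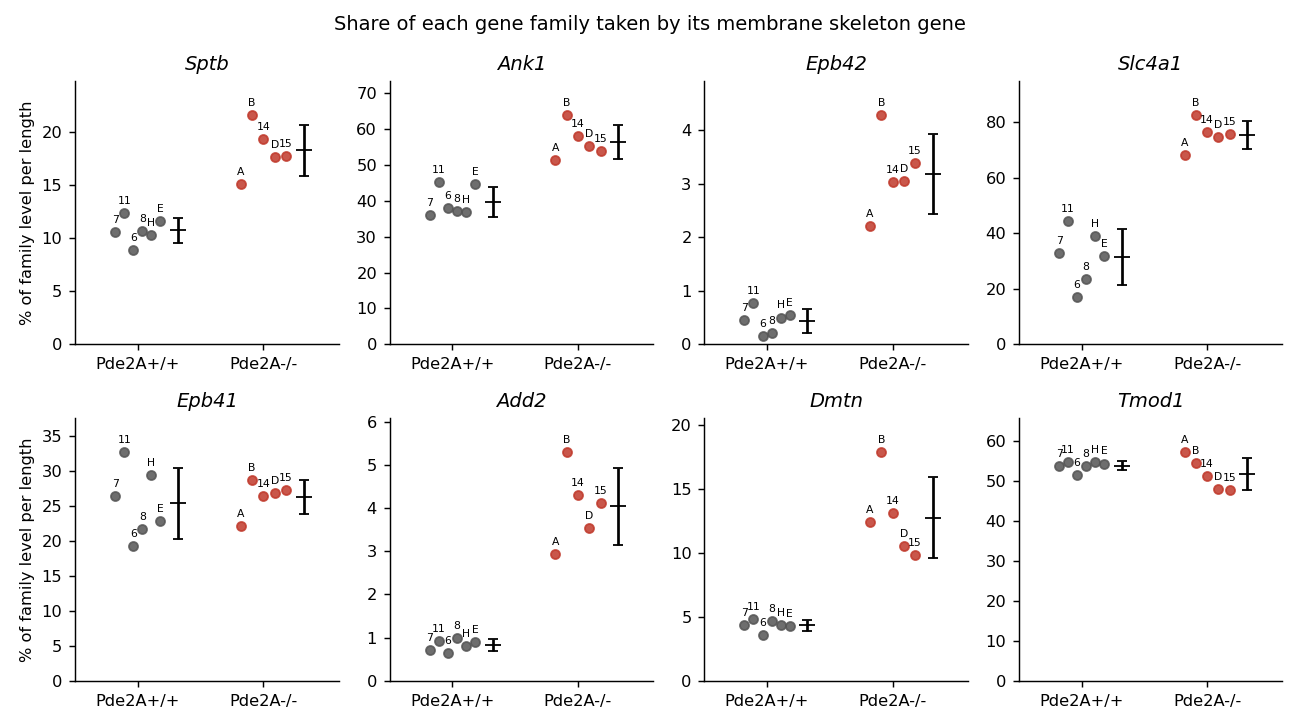
Share of each gene family's summed level per length that its membrane skeleton gene took (vertical axis, percent, starting at 0) in the 6 *Pde2A*+/+ (grey) and 5 *Pde2A*-/- hearts (red), with each heart as a point and the mean and SD as bars. The genotypes do not overlap for Sptb, Ank1, Epb42, Slc4a1, Add2 and Dmtn. The shares of Epb41 and Tmod1 overlap.

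Within their families the members that rose took a larger share in *Pde2A*-/- hearts. This follows from their rise beside relatives with a median log2 fold change of 0.05 and is not a separate result. *Slc4a1* made up 31.4 ± 9.96% of the level per length of its 9 tested family members in *Pde2A*+/+ hearts and 75.4 ± 5.11% in *Pde2A*-/- hearts. *Ank1* went from 39.6 ± 4.18% to 56.5 ± 4.78%, *Sptb* from 10.8 ± 1.18% to 18.3 ± 2.39% and *Dmtn* from 4.36 ± 0.435% to 12.8 ± 3.16%. *Epb42* and *Add2* remained small parts of their families, at 3.19 ± 0.748% and 4.04 ± 0.885% in *Pde2A*-/- hearts against 0.439 ± 0.229% and 0.831 ± 0.139%. *Epb41*, at 25.4 ± 5.06% and 26.2 ± 2.48%, and *Tmod1*, at 53.8 ± 1.21% and 51.7 ± 4.09%, overlapped between the genotypes.

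The skeleton genes were then set against the globin genes, which are the most abundant messenger RNAs of a red cell. The summed level of 7 globin genes was between 5574 and 8748 CPM in *Pde2A*-/- hearts and between 4580 and 16101 CPM in *Pde2A*+/+ hearts, so the genotypes overlapped. None of the globins rose, *Hbb-bt* fell (log2 fold change -1.43, SE 0.310, adjusted p = 0.0105) and the other 6 did not pass. The median log2 fold change over the 7 was -0.51, but the signs differed. *Hbb-bh1* (0.79), *Hbb-y* (0.24) and *Hba-x* (0.22) had positive values, and *Hba-a2* (-0.70), *Hba-a1* (-0.51) and *Hbb-bs* (-0.51) negative ones. *Hbb-bt* no longer passed without the hearts with *Alb* (-1.0, adjusted p = 0.113) or without those with *Myh3* (-1.34, adjusted p = 0.073). *Hbb-bt* and *Hbb-bs*, like *Hba-a1* and *Hba-a2*, are near-identical copies, and reads that map to both are not in these counts. Values of single globins, their sum and values per globin count are therefore uncertain. Whether this loss differed between the genotypes was not tested. The 4 *Hbb* genes lie on chromosome 7, between 103812524 (*Hbb-bt*) and 103853216 (*Hbb-y*). *Pde2a* is on the same chromosome, where *Gm45837*, which shares its exons, spans 101410886 to 101512819. Whether strain sequence linked to the *Pde2A* allele on the mixed background affected the *Hbb* counts, and so the values per globin count, was not tested.

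Per 1000 globin counts, *Slc4a1* had 41.9, 72.3, 72.0, 42.0 and 48.4 counts in *Pde2A*-/- replicates A, B, 14, D and 15. In *Pde2A*+/+ hearts it had 4.77 to 9.50 counts, and the means of 55.3 ± 15.6 and 6.03 ± 1.82 were 9.17 times apart. *Epb42* stood at 3.97 ± 1.16 against 0.398 ± 0.191 (9.97 times), *Add2* at 5.18 ± 1.43 against 0.879 ± 0.394 (5.89 times), *Dmtn* at 4.54 ± 1.39 against 0.997 ± 0.393 (4.55 times), *Sptb* at 32.8 ± 7.06 against 12.9 ± 5.79 (2.54 times) and *Ank1* at 18.5 ± 4.36 against 8.04 ± 4.32 (2.30 times). In these 6 genes all 5 *Pde2A*-/- hearts lay above all 6 *Pde2A*+/+ hearts on this scale too, as 2.0% of all genes did. *Epb41* was at 29.8 ± 4.55 and 23.7 ± 5.95 counts per 1000 globin counts and *Tmod1* at 51.9 ± 10.8 and 52.6 ± 27.8, both with overlap. From the lowest to the highest *Pde2A*+/+ heart, the ratio per globin count was narrower than that in CPM for *Slc4a1* (1.99 against 4.01), *Epb42* (3.16 against 4.27) and *Epb41* (1.80 against 2.09). It was wider for *Sptb* (3.01 against 1.29), *Ank1* (3.19 against 1.56), *Add2* (2.82 against 1.64), *Dmtn* (2.63 against 1.45) and *Tmod1* (4.61 against 1.31).

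**Figure D4:**
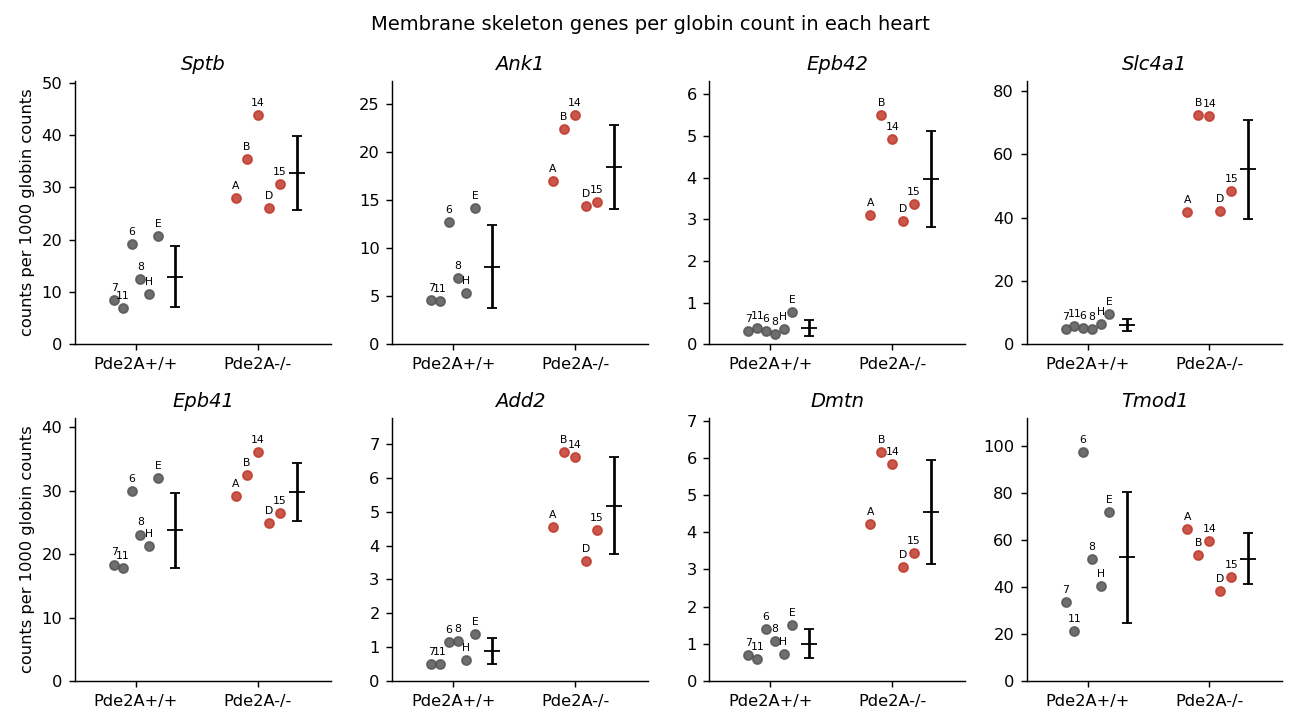
Counts of each membrane skeleton gene per 1000 counts of the 7 globin genes (vertical axis, starting at 0) in the 6 *Pde2A*+/+ (grey) and 5 *Pde2A*-/- hearts (red), each point a heart marked with its replicate name, bars the mean and SD. Sptb, Ank1, Epb42, Slc4a1, Add2 and Dmtn do not overlap between the genotypes. Tmod1 ranges from 21.1 to 97.3 in *Pde2A*+/+ hearts alone.

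Over the 11 hearts of both genotypes together, each member except *Tmod1* tended to follow the mean of the 8 members. After the genotype means were taken out, Pearson's r of each member with the mean of the 8, over the 11 hearts, was 0.96 for *Slc4a1*, 0.95 for *Epb42*, 0.87 for *Epb41*, 0.86 for *Dmtn*, 0.85 for *Sptb*, 0.76 for *Ank1* and 0.70 for *Add2*, but -0.34 for *Tmod1*. These values describe 11 libraries whose levels share the same normalization, and each member is part of the mean. *Pde2A*-/- replicate A was the lowest of its genotype in all members except *Tmod1*, and *Pde2A*+/+ replicate 11 was the highest of its genotype in *Epb42*, *Slc4a1*, *Epb41* and *Dmtn*. The genes of none of the lists whose levels followed the members most closely, out of 13866 with a mean of at least 1 CPM, were *Isg20* (r = 0.957), *Paqr6* (r = 0.950), *Tspan33* (r = 0.935), *Ranbp10* (r = 0.928) and *Sowaha* (r = 0.927). Of these, *Tspan33*, *Ranbp10* and *Sowaha* rose between the genotypes, by 2.02 (SE 0.157, adjusted p = 6.76e-06), 0.65 (SE 0.0736, adjusted p = 1.05e-04) and 2.23 (SE 0.286, adjusted p = 2.92e-04) on the log2 scale. The correlations of these genes were picked as the highest over only 11 hearts and were not tested. *Paqr6* had just 41 to 69 counts per heart.

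Markers of some other cells also differed between the genotypes. Over all genes tested, 8.93% passed as higher and 5.67% as lower. The 17 macrophage genes summed to 423 to 547 CPM in *Pde2A*-/- and 271 to 351 CPM in *Pde2A*+/+ hearts, and 15 of the 17 rose. The 12 megakaryocyte genes summed to 38.6 to 55.7 CPM and 20.2 to 33.7 CPM, and 5 of the 11 tested rose. *Csf1r* of macrophages was at 31.5 CPM or more and *Itga2b* of megakaryocytes at 8.22 CPM or more in every heart. *Marco* of the macrophage list was at 0 in 1 *Pde2A*+/+ heart, and *Gp1bb* of the megakaryocyte list had 0 to 5 counts per heart and was not tested. Of 14 liver genes tested 1 (*Trf*, transferrin) rose and 13 did not pass, with a median log2 fold change of -2.27. *Alb* was between 0.0236 and 11.5 CPM in *Pde2A*-/- hearts and between 0.0261 and 46.6 CPM in *Pde2A*+/+ hearts. Of the 20 cardiomyocyte genes 6 passed as lower, 1 as higher and 13 did not pass, with a median log2 fold change of -0.20. *Tcap*, which encodes a sarcomere protein of the Z-disc, fell by 0.88 on the log2 scale (SE 0.133, adjusted p = 1.03e-03), the giant sarcomere protein gene *Ttn* by 0.51 (SE 0.112, adjusted p = 0.0119) and the troponin gene *Tnnc1* by 0.48 (SE 0.0797, adjusted p = 2.06e-03), whereas *Nppa*, the atrial natriuretic peptide, rose by 0.87 (SE 0.187, adjusted p = 9.99e-03). The 20 cardiomyocyte genes summed to 49637 to 56714 CPM in *Pde2A*-/- and 49212 to 64645 CPM in *Pde2A*+/+ hearts, and the genotypes overlapped. Of 13 skeletal muscle genes 1 rose and 12 did not pass, and of 12 neuron genes 1 rose and 11 did not pass. The part of heart muscle cells, macrophages, megakaryocytes and liver in the values of the members was not tested. The 6 skeleton genes that passed also did so without the hearts with *Alb* at 10 CPM or more. *Alb* had at least 1 count in every heart, so that fit did not leave out all reads of *Alb*.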

How the data were processed

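RNA was sequenced from 5 *Pde2A*-/- (KO) and 6 *Pde2A*+/+ (WT) hearts, as single-end reads of stranded mRNA libraries on a NextSeq 500. The authors mapped them with STAR to GRCm38 (mm10) and deposited raw counts per gene and heart; the STAR version and the annotation are not given in the sources used here. Groups and replicate names came from the sample labels. The column of sense reads was used, and the 4 lines of reads not on a gene, 19.6 to 22.4% of the reads, stayed out. Names, positions and exon lengths came from GENCODE M21, in which 55227 identifiers matched.

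The genotypes were compared by edgeR 4.0.16 in R 4.3.3 (TMM, quasi-likelihood test, Benjamini-Hochberg) over genes with at least 10 counts summed over the 11 hearts. Intervals cover 95%. The members and lists were chosen with earlier results of these data known. Named genes were the members, up to 4 genes per list with a mean of at least 1 CPM and the largest changes, *Mpp1*, *Gypc*, *Rhag*, the globins, the highest relative of each member, genes overlapping a member, and the 5 genes most like their mean; other genes were named after their values were seen. The values of 2 partner genes are left out of the text, although counts over the partner list include these genes. The fit was tested on simulated data. Alternatives were DESeq2 1.42.0, its size factors, filterByExpr, no filter, both strands, globins left out, naming style as a covariate and each heart left out; fits without hearts with *Alb* or *Myh3* were added after seeing the data. Plots were drawn with matplotlib 3.10.9.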

Additional observations from a re-analysis of the deposited data

Results flagged for a closer look

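Of 32 sets of values, the 8 members in each genotype in CPM and per 1000 globin counts, 3 held a heart that stood far from the others by Dixon's test, and chance alone marks about 1 set in 20. *Sptb* was at 156 CPM in *Pde2A*-/- replicate A, where the other 4 hearts of that genotype lay between 229 and 257 CPM. *Epb42* had 0.776 counts per 1000 globin counts in *Pde2A*+/+ replicate E, against 0.245 to 0.378 in the other hearts of that genotype. *Slc4a1* had 9.50 counts per 1000 globin counts in the same heart, against 4.77 to 6.46 in the others. Both values of replicate E remained below every *Pde2A*-/- heart.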

How the results depend on the processing

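Under 20 alternatives, 6 members passed the test in each, and *Epb42*, *Slc4a1*, *Add2*, *Dmtn*, *Sptb* and *Ank1* stayed past it. *Ank1* was under 2-fold without *Pde2A*-/- replicate B or *Pde2A*+/+ replicates 7 or 8, so that 5 to 6 members were past 2-fold when single hearts were left out, and 6 in the other fits. The log2 fold change of *Epb41* was -0.054, -0.013 and -0.0059 without *Pde2A*+/+ replicates 6, 8 and E, within a range of -0.054 to 0.159 when single hearts were left out, and 0.03 to 0.25 in the other fits. *Tmod1* did not pass in any fit (-0.21 to -0.12). With single hearts left out, 13 to 17 partners and 4 to 10 paralogs passed, against 16 and 8; 5 paralogs passed without *Pde2A*-/- replicates 14 or D or *Pde2A*+/+ replicates 6, 8 or E and 4 without *Pde2A*-/- replicate 15. Without a filter 4 paralogs passed. Without the hearts with *Alb* 10 partners and 3 paralogs passed, and without those with *Myh3* 3 paralogs; these fits have fewer hearts. The other erythroid genes that passed numbered 20 to 27, against 25. The cause of the other changes was not tested. No paired analysis was possible because the genotypes share no replicate names. Counts are per gene, so erythroid and muscle transcripts of *Ank1*, *Sptb* and *Epb41* were not separated. The lowest member count in a heart was 52.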

Other observations

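Red cell genes outside the skeleton and its membrane partners were uneven. Of 38 further erythroid genes 23 rose, 2 fell and 13 did not pass by edgeR's quasi-likelihood test, with a median log2 fold change of 0.77. All 7 transcription factors and nuclear regulators rose, with a median of 3.45. Among them *Hemgn*, a nuclear regulator of erythroid cells, went from 1.54 ± 1.03 to 47.9 ± 11.5 CPM, *Klf1*, the erythroid Krüppel-like factor, from 1.02 ± 0.538 to 17.7 ± 5.36 CPM, and *Gfi1b*, a repressor of erythroid and megakaryocytic cells, from 0.296 ± 0.198 to 6.17 ± 1.88 CPM. *Pklr*, the red cell pyruvate kinase, rose from 1.14 ± 0.984 to 37.1 ± 9.67 CPM (log2 fold change 5.00, SE 0.411, adjusted p = 8.88e-06).

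Of 9 genes of heme synthesis and iron uptake 5 rose. *Slc25a37*, the mitochondrial iron carrier, rose (59.4 ± 20.6 to 237 ± 51.1 CPM, adjusted p = 7.37e-05), whereas *Alas2*, the first enzyme of heme synthesis in red cells, was at 189 ± 103 CPM in *Pde2A*+/+ and 124 ± 25.7 CPM in *Pde2A*-/- hearts and did not pass (log2 fold change -0.60, 95% interval -1.29 to 0.08, adjusted p = 0.221). *Bpgm*, which makes the 2,3-bisphosphoglycerate that lowers the oxygen affinity of hemoglobin, fell (88.0 ± 35.0 to 44.6 ± 6.26 CPM, log2 fold change -0.98, adjusted p = 0.0149), but no longer passed without the hearts with *Alb* (-0.67, adjusted p = 0.12) or without those with *Myh3* (-0.96, adjusted p = 0.0616). Without globins, the 31 other genes of the list summed to 2097 to 3066 CPM in *Pde2A*-/- and 1424 to 2075 CPM in *Pde2A*+/+ hearts.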
